A study of Arabidopsis thaliana with 6 samples.

Results

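The binding of FRUITFULL (FUL) in the inflorescence meristem (IM) of Arabidopsis thaliana was described from the authors' list of enriched regions, with all 3650 rows of that list taken as members. Together with the 3494 regions of a second list, from pistils, the series held 7144 regions. IM tissue came from plants of a Ler/Col F2 background, aged 4 to 5 weeks, which carried pFUL:FUL-GFP (tagged FUL under its own promoter) and 35S:AP1-GR and were mutant for both ap1-1 and cal-1. No ful mutation is labelled for them, so native FUL is assumed to be present beside the tagged protein, which the labels do not state. The AP1-GR fusion was not induced, and the input library came from plants of the same genotype, so every IM library shared both mutations and both transgenes. Pistils, used only for comparison and to set a limit on the IM list, were of stages 12 to 16. They came from pFUL:FUL-GFP ful-1 plants, so tissue and genotype cannot be told apart. Each tissue had 2 ChIP libraries, made with anti-GFP beads, and 1 input library. The 2 ChIP libraries were called together, so each region has 1 value and no spread between replicates. The read depth is unknown. The source is labelled as inflorescence-like meristems, and a list of binding sites holds no marker that could check the tissue.

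FUL is a MADS-domain transcription factor of the clade of APETALA1 (AP1). MADS-domain proteins bind DNA as dimers and tetramers at CArG boxes, and FUL is known to promote the change from vegetative to reproductive growth at the shoot apex, to act with AP1 and CAULIFLOWER (CAL) in floral meristem identity, and to shape the fruit wall later. In ap1 cal double mutants the apex forms meristem upon meristem in place of flowers, which gives a tissue rich in inflorescence meristem cells. Their number, and the state of those cells, differ from those of a wild-type apex.

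The strongest enrichment lay at genes of several kinds. Fold enrichment, the authors' ratio at the summit of a region, ran from 2.32 to 9.81 with a median of 3.77, with quartiles of 3.22 and 4.68. The lowest −log10 p in the list was 22.4 and the highest 221. Fold and −log10 p ranked the regions almost alike (Spearman's rho 0.97 over 3650 regions, which share the same libraries). At the lower end stood regions near ERD9, a glutathione transferase gene (fold 2.32), near AT4G25160 (2.52), inside AT1G73480 (2.58), and near OPT9 and BON2 (both 2.59). The curve of fold against rank had no step that would set a class of strong sites apart.

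**Figure D1:**
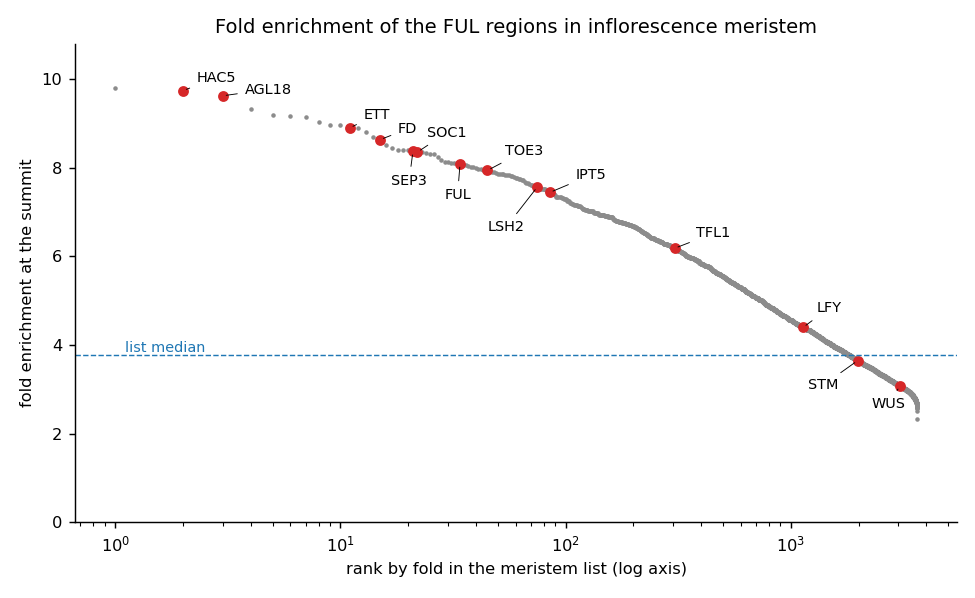
Fold enrichment at the summit of each of the 3650 IM regions (grey points) against its rank on a log axis, with the strongest region within 3 kb of 14 genes marked in red and the list's median of 3.77 as a dashed line. HAC5, AGL18 and ETT stand above 8.9, FD, SEP3, SOC1 and FUL between 8.0 and 8.7, and STM and WUS below the median.

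Among the 25 highest folds, the first rank belonged to a region inside AT3G10040 (HRA1, named for the attenuation of the hypoxia response), at fold 9.81. Next came HAC5, a histone acetyltransferase gene (9.75), the MADS-box gene AGL18, a repressor of flowering (9.63), and ATG18C, an autophagy gene (9.32). The sixth and the twelfth rank were neighbours on chromosome 4. The first of this pair (13020794 to 13024804, fold 9.18) had its summit 727 bp from the splicing factor gene RS40 and 775 bp from the cold-response gene CBF1. The other (13013721 to 13019716, fold 8.89) had its summit inside CBF2 and reached over DREB1A, so the cluster of cold-response CBF genes lay under a pair of strong regions. CLE42, which encodes a CLE signalling peptide, had a summit 442 bp away (8.97). ETT, an auxin response factor gene of organ polarity, had one 2327 bp away (8.91, chromosome 2, 14329817 to 14333546). The summit of rank 15 lay between LARP1c (1622 bp) and FD (1864 bp), the bZIP partner of the florigen FT (8.64). Others of the 25 were beside or inside the receptor kinase gene HSL1 (8 bp, 8.42), the cell wall gene GATL5 (inside, 8.41), SEP3 (2736 bp, 8.37, with AT1G24265 nearer at 1532 bp) and SOC1 (inside, 8.36). The remaining summits of the 25 lay closest to AT5G58900, UKL3, AT1G19330, AT5G21280, AT4G16750, AT5G13100, CXE13, AT3G17340, ZF14, AT5G41380, AT5G44590 and AT5G52660, with folds between 8.32 and 9.19. The 25 leading summits were thus not confined to regulators of flowering.

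Regions were broad. The median width was 1075.5 bp, the narrowest region measured 342 bp and the widest 9767 bp, and 450 regions (12.3%, Wilson 95% interval 11.3 to 13.4%) measured 2 kb or more. Intervals on shares cover counting error only. Width and fold were loosely related (rho 0.22). In the decile of regions with the lowest folds the median width was 993 bp and 7.12% reached 2 kb, and in the decile with the highest folds these values were 1354 bp and 21.4%.

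The widest region lay over FUL itself. It ran from 24501690 to 24511456 on chromosome 5, had a fold of 8.10 (rank 34), covered the whole 3836 bp of the gene, and touched the ends of its neighbours RLK1 (81 bp) and COB (305 bp). It also had the latest letter of the list, f, so the caller had found at least 6 summits in it. The listed summit stood 82 bp outside FUL. The plants carried a FUL transgene besides the native FUL locus, and DNA of the pair cannot be told apart at this place. In the pistil list, from plants with the same transgene, the span held 2 regions of 5096 bp (fold 4.68) and 906 bp (5.07). The next widest regions were one of 6587 bp near TSD2 (fold 3.95), the region over CBF2 and DREB1A of 5996 bp, one of 5529 bp at the ethylene response gene ERF4 (5.38), and one of 5248 bp at SOC1.

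**Figure D2:**
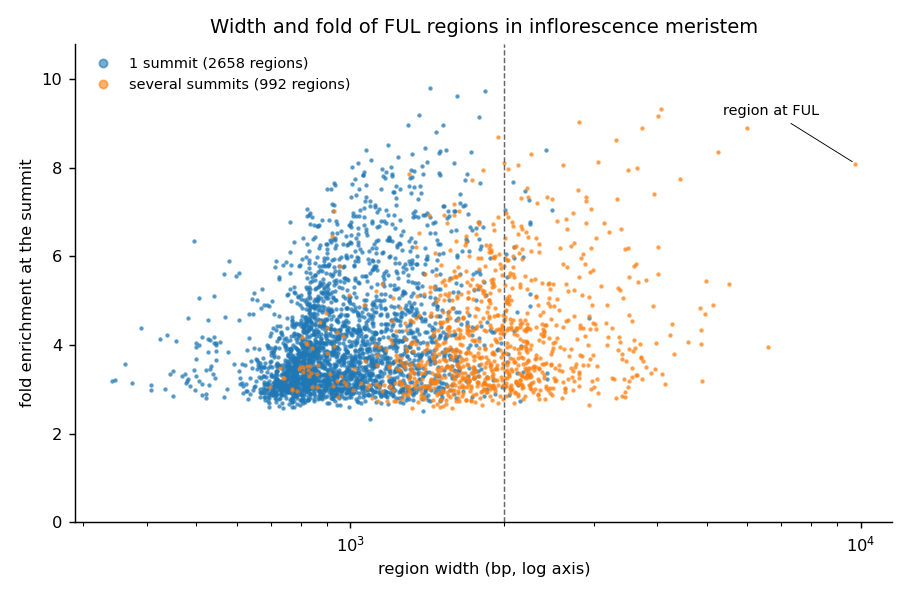
Width (bp, log axis) against fold enrichment for regions with 1 summit (blue, 2658) and with several summits (orange, 992), with a dashed line at 2000 bp. Regions with several summits lie to the right, the folds of both kinds cover the same span, and the region at FUL is the widest.

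Peak names that end in a letter mark regions in which more than 1 summit was found. There were 992 of them (27.2%, 25.8 to 28.6%). For each such region the list held 1 row, so the other summits have no values, and the letter gives only a lower bound on their number. The letter a was carried by 448 rows, b by 425, and c or later by 119, which had at least 3 summits. Regions with several summits were wider (median 1889.5 bp against 936 bp) with nearly the same fold (3.83 against 3.74). Those of letter e were near EXO, a growth gene (fold 4.23), the kinase gene AGC1.7 (4.00), the DELLA gene RGA (3.41), the gibberellin receptor gene GID1B (3.26) and AT4G36820 (3.17, 378 bp away, named after its value was seen). RGA and GID1B both act in gibberellin signalling. No share over all regions was computed and the letter is a lower bound, so no theme is read from these 5. Summits of several-summit regions lay inside genes in 24.8% of cases (22.2 to 27.6%) and 1 to 3 kb from one in 20.9% (18.5 to 23.5%), against 31.3% (29.5 to 33.1%) and 14.7% (13.5 to 16.1%) for regions with 1 summit.

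The position of the summit within a region differed with the number of summits. With 1 summit, the median distance from the summit to the middle of the region was 50 bp, and 2027 of 2658 (76.3%) lay within 100 bp of it. With several, the median distance was 354.75 bp and 76 of 992 (7.66%) lay within 100 bp. Rows with the letter a had their summit at a median of 0.29 of the width from the start, and rows with b at 0.67. Over the whole list, 2103 of 3650 summits (57.6%) lay within 100 bp of the middle. The middle of a region is therefore a poorer stand-in for its summit in the 27.2% of regions with several summits. Placement of summits was compared with the pistil list at the 2067 regions that had exactly 1 overlapping partner. The median distance between both summits was 33 bp (quartiles 15 to 66 bp) over 1131 pairs in which both regions had 1 summit, and 59 bp (23 to 150 bp) over the other 936. In 125 pairs (6.05%) the summits were more than 500 bp apart.

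**Figure D3:**
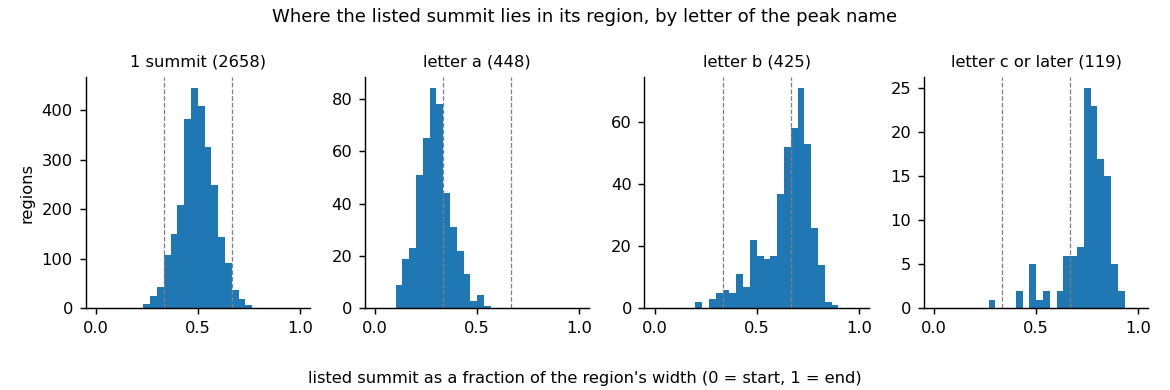
Number of IM regions by the position of the listed summit as a fraction of the region's width, for 1 summit (2658 regions), letter a (448), letter b (425) and letter c or later (119), each panel with its own vertical axis. Single summits gather at the middle, those of letter a at a median of 0.29 and those of letter b at 0.67.

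Of all summits, 2105 (57.7%, 56.1 to 59.3%) lay within 500 bp of the end of a protein-coding gene. Summits outside genes were at a median of 448 bp from the nearest one. Of the 1077 summits inside genes, 749 (69.5%) were within 500 bp of an end, and the median distance to the nearer end was 180 bp. The share of all bases that lie so close to a gene end was not computed, so no enrichment at gene ends is read from these values. Genes that held a summit were longer than genes in general (median 2807.5 bp against 2078 bp). A longer gene has more room for any summit and no comparison per base was made, so no preference is read from this. Strand was not used here, so starts and ends of genes are not told apart. The share within 1 kb outside genes lay between 49.3% and 54.5% in every decile of fold. Summits inside genes made up 23.6% (lowest folds) to 34.0% (highest folds) of a decile, with no steady rise between them: the second decile had 32.6% and the ninth 27.9%.

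The share of spacers between genes that held a summit differed with their length, with no steady rise. A longer spacer has more room for any summit, so no preference for long spacers is read from these shares. A summit was found in 455 of 12736 spacers of up to 1 kb (3.57%), in 845 of 6788 of 1 to 3 kb (12.4%), in 924 of 3582 of 3 to 10 kb (25.8%, 24.4 to 27.3%) and in 109 of 704 longer ones (15.5%, 13.0 to 18.3%). The spacer around a summit had a median length of 2894 bp, against 877 bp for all spacers and 5770 bp for a base drawn from all spacers. Regions were spread evenly over the 5 chromosomes, with 12.6 (chromosome 3) to 13.8 (chromosomes 1 and 4) regions per 100 protein-coding genes. Each chromosome also had a stretch without any region, of 1265 kb on chromosome 3 up to 2077 kb on chromosome 4, and these stretches held between 19 (chromosome 1) and 186 (chromosome 2) protein-coding genes. Only 122 summits (3.34%) had no protein-coding gene within 3 kb. The highest fold among them, 8.00, was on chromosome 4 (17407458 to 17411100), 4337 bp from AT4G36925. The next were near AT5G22090 (7.03), HPT1 (6.75), PPC2 (6.75) and AT2G01580 (6.40).

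**Figure D4:**
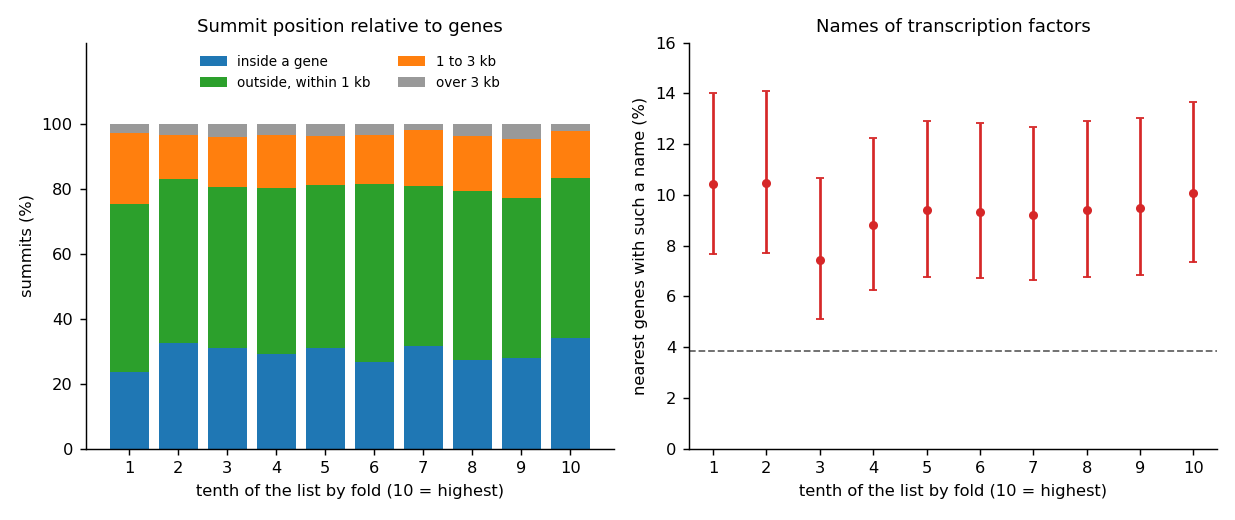
Left, share of summits (%) by distance class to the closest protein-coding gene, in deciles of the list from the lowest folds (1) to the highest (10). Right, share of nearest genes (%) whose name marks a transcription factor, with Wilson 95% intervals, and the 3.87% of all protein-coding genes as a dashed line, which lies below every interval.

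Transcription factor genes were frequent next to summits at every level of fold. The gene nearest to a summit, within 3 kb, had a name or synonym that marks a transcription factor or DNA binding in 332 of 3528 cases (9.41%, 8.49 to 10.4%), against 3.87% (3.65 to 4.10%) of all protein-coding genes. The share lay between 7.43% and 10.5% in all 10 parts of the list and did not climb with fold. Genes near summits more often had a name at all, and unnamed genes made up 44.3% of them against 58.4% of all genes. Among named genes, counted once each, the shares were 16.4% (14.7 to 18.2%) and 9.29% (8.78 to 9.84%). Kinases were 4.89% of the named nearest genes and 5.10% of all named genes, transporters and channels 4.55% and 4.69%, peptide ligands 1.09% and 1.01%, and ribosomal proteins 0.288% and 0.674%. These classes rest on words in gene names and miss genes named otherwise. They also take in genes by a word alone, such as TFIIB (fold 8.24) and ERS2 (6.70) in the transcription factor class. The shares are therefore not lower bounds.

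Genes with a summit inside them or within 3 kb of either end are called targets here, which does not show regulation. Of 27444 protein-coding genes, 6505 were targets (23.7%) and 3803 within 1 kb (13.9%). Counting any base of a region gave 7371 (26.9%), the nearest gene alone 3209 (11.7%). Targets had a median of the highest fold per gene of 3.90. Among 239 members of 14 lists of regulators and hormone genes, 135 were targets, and among 33 members of 3 control lists, 8 were. For some members, another gene lay nearer to the summit of highest fold. Among flowering and floral organ genes these were SVP, FLC, MAF2, SEP3, AGL6, AGL13, PI, SMZ, SNZ, FD, LMI1, SPL5, SPL9 and SPL15. Among meristem, boundary and fruit genes they were CLV1, HAM3, LOF1, LSH4, ALC and ADPG1. Among hormone and bud genes they were GA2OX1, RGL1, RGL2, LOG8, CKX6, ARR5, AHK3 and MAX3. In other lists they were HAC12, LUX, CDF3, ACT8, CRB, SHR and CASP1. No set test was made, so counts are read beside the background of 23.7% only. Binding below the limit of the list is not seen.

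Of 21 genes of the AP1, SOC1 and SVP groups and their relatives, 11 were targets, with a median of the highest fold of 6.59. They were AGL18 (fold 9.63), the floral integrator SOC1 (8.36), FUL (8.10), the vernalization gene FLC (8.04, summit 2394 bp away, and a second summit inside it at 3.89), the floral repressor SVP (7.40, with AT2G22530 nearer), AGL15 (6.59), AGL19 (4.65), AGL42 (4.04), AGL17 (3.75), MAF2 (3.64) and AGL71 (3.46). AGL42 had 3 regions of similar fold (3.01 to 4.04). No listed summit lay within 3 kb of AP1, CAL, AGL79, AGL72, AGL14, AGL24, MAF1, MAF3, MAF4 or MAF5. AP1 and CAL were mutant in these plants, and whether this bears on the lack of a listed summit was not tested. All of the group's folds above 6 were at repressors of flowering, at SOC1 and at FUL.

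Of 12 MADS-box genes of floral organs, 11 were targets in the meristem tissue, with a median fold of 5.53. The E-class genes SEP3 (8.37), SEP2 (5.53), SEP4 (5.13) and SEP1 (4.25) all had a summit, as had the fruit gene SHP2 (8.14) and its near copy SHP1 (4.72). AGL6 (6.38, with SAP18 nearer), the C-class gene AG (6.28, inside the gene) and the B-class gene AP3 (5.84, inside) were targets too. The B-class gene PI (4.52, with DIN10 nearer) and AGL13 (3.88, with GAUT1 nearer) completed the group. AGL6 also had a summit 307 bp away (4.33) and one inside the gene (3.14). STK, the ovule identity gene, had none. SOC1 and AGL6 are neighbours, and a run of 4 regions with folds of 3.14 to 8.36 spanned 13976 bp across the pair.

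The AP2-like genes, repressors of flowering controlled by miR172, were targets in 5 of 6 cases and had the highest median fold of the 14 lists, 6.75. TOE3 (7.94) and AP2 (7.76) led, followed by SMZ (6.75, 2623 bp away with TON1A nearer), TOE1 (6.74) and SNZ (6.06, with AT2G39260 nearer). TOE2 had no summit. The median is thus the value of SMZ, which also had a summit 156 bp away (5.81). SNZ was the nearest gene of no summit. The regions at AP2 and TOE3 were broad (4434 bp and 3499 bp), and AP2, TOE1, TOE3 and SMZ each had at least 2 regions. In the FT and TFL1 family, the floral repressors ATC (7.20), TFL1 (6.19) and BFT (3.11) were targets, and FT, TSF and MFT were not. FD (8.64) and FDP (4.14), which encode bZIP partners of these proteins, were targets. LFY (4.40, inside the gene) and LMI1 (4.56, with TRFL10 nearer) were targets too, and UFO was not. FD had a second region with its summit inside the gene (6.40). Thus the 3 family members with a summit were ATC, TFL1 and BFT, and the florigen genes FT and TSF had none.

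SPL genes, several of which promote the adult phase under the control of miR156, were targets in 9 of 17 cases with a median fold of 3.73, below that of all targets. SPL2 (5.73, inside), SPL5 (5.70), SPL9 (4.58), SPL8 (4.44), SPL15 (3.73), SPL16 (3.30), SPL4 (3.27) and SPL7 (3.13) are given with their highest fold, and SPL1 had 2.93. SPL8 and SPL9 had 3 regions each. Among peaks with a fold above the median the count was 4 of 17, beside a background of 12.9%. No summit lay near SPL3, SPL6, SPL10, SPL11, SPL12, SPL13A, SPL13B or SPL14.

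Shoot meristem genes were targets in 13 of 16 cases, mostly with modest folds (median 3.78). The homeobox gene ATH1 (7.27, 76 bp away) and the GRAS gene HAM1 (6.92, 256 bp) led, ahead of the KNOX genes KNAT2 (6.09, inside) and KNAT6 (5.98, inside) and the receptor gene CLV1 (5.41). The receptor gene ER (3.89), BLH8 (3.78), KNAT1 (3.67, inside), STM (3.65, with a second region at 3.46), CRN (3.40), BLH9 (3.39), WUS (3.07, chromosome 2) and HAM3 (2.84) followed. WUS, the stem cell organizer gene, thus ranked 3052 of 3650 by its region, which measured 485 bp. CLV2, CLV3 and HAM2 had no listed summit. Among peaks with a fold above the median the count was 7 of 16 (background 12.9%), and STM and WUS both stood below the list's median fold of 3.77.

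Boundary and organ initiation genes were targets in 14 of 20 cases (median fold 4.29). LSH2 (7.57, inside), the BTB genes BOP1 (5.75) and BOP2 (5.34), LSH4 (5.73), the MYB gene AS1 (5.53), RAX1 (4.68) and LSH3 (4.34) and the AP2-domain genes AIL5 and AIL6 (both 4.24) had the highest folds, and LOF1 (3.72) and the auxin response factor gene MP (3.68, inside) followed. RAX1, a regulator of axillary meristems, had 4 regions within 3 kb (2.96 to 4.68), a number reached by 5 genes of the genome. The NAC genes CUC1 (2.73), CUC2 (2.84) and CUC3 (2.99), which set organ boundaries, were all targets, each in the lowest folds of the list. LAS, PUCHI, DRN, DRNL, ANT and AS2 had none. Within 1 kb, the count of the list was 7, beside a background of 13.9%, and above the median fold it was 9 (12.9%). Of 14 organ polarity genes, 9 were targets (median 4.33): ETT (8.91), the HD-ZIP III genes PHB (6.79), PHV (4.97), HB8 (4.33) and REV (2.95), the KANADI genes KAN4 (4.93), KAN3 (3.04) and KAN2 (3.01), and YAB2 (3.41). KAN1, CNA, FIL, YAB3 and YAB5 were not. KAN2 and PHV had 3 regions each. Above the median fold 5 of the 14 were targets.

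**Figure D5:**
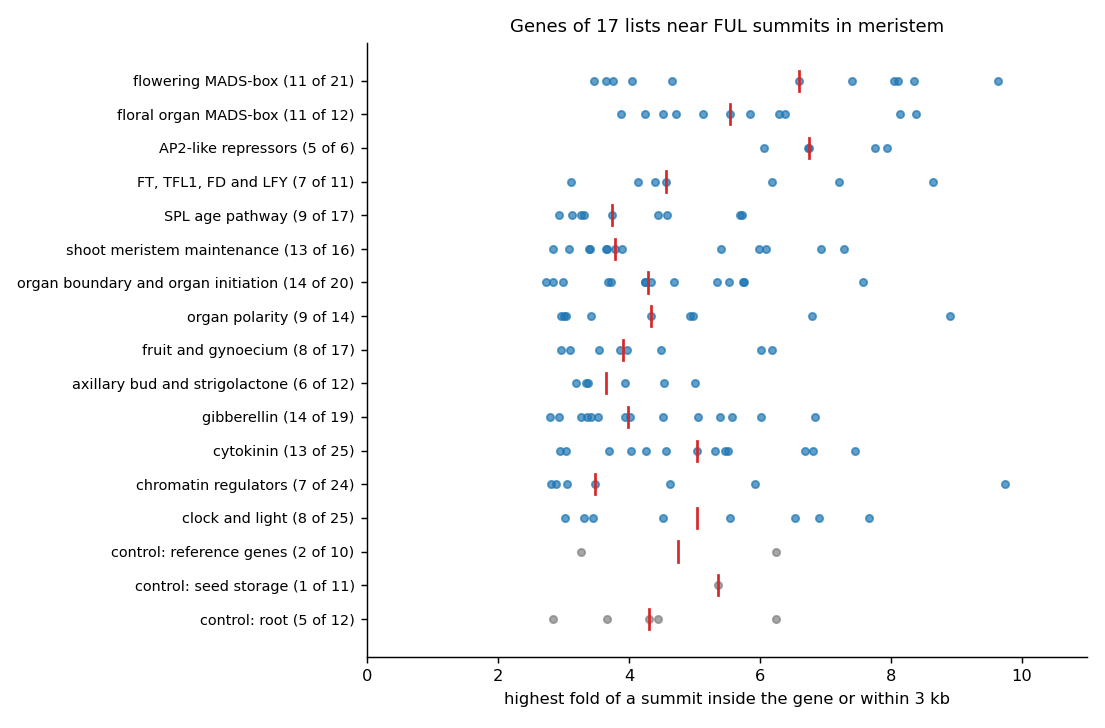
Highest fold of a summit inside or within 3 kb of each target gene, by list, with the number of targets and of members in brackets and the median as a red bar; control lists are grey. AP2-like and flowering MADS-box genes have the highest medians (6.75 and 6.59), and the 3 control lists hold 8 targets.

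Hormone genes were targets on the side of synthesis as well as of response. Of 19 gibberellin genes, 14 were targets, with a median fold of 3.98. The catabolic genes GA2OX1 (6.84, with AT1G78450 nearer), GA2OX4 (5.56, inside) and GA2OX8 (4.52, inside), the synthesis genes GA20OX1 (5.39) and GA3OX1 (4.02), the receptor genes GID1B (6.02) and GID1C (3.94) and the DELLA gene RGL2 (5.06) were highest. GID1A, GA20OX3, GA2OX2, GAI, RGA and RGL1 had folds of 2.79 to 3.52, and GA20OX2, GA3OX2, GA2OX6, GA2OX7 and RGL3 had no summit. All 3 receptor genes and 4 of the 5 DELLA genes were targets. The count was 7 of 19 within 1 kb (background 13.9%), 8 among peaks with a fold above the median (12.9%) and 8 at the lowest −log10 p of the pistil list (16.1%). Of 25 cytokinin genes, 13 were targets (median 5.04). Of the synthesis genes, IPT5 (7.45, inside), LOG1 (6.81), LOG3 (6.68, inside), LOG5 (5.51), LOG8 (5.04) and IPT3 (3.69, inside) were targets. The response regulator genes ARR4 (5.47), ARR5 (4.55) and ARR7 (4.03), the oxidase genes CKX6 (5.31), CKX7 (4.26) and CKX5 (2.95) and the receptor gene AHK3 (3.04) were targets as well. IPT1, IPT7, LOG4, LOG7, CKX1, CKX2, CKX3, CKX4, ARR6, ARR15, AHK2 and AHK4 had none.

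Genes that act in fruits or buds were targets as well. Of 17 fruit and gynoecium genes, 8 were targets in the meristem (median 3.91), with ADPG2, a pod-opening polygalacturonase gene (6.18, inside), and HEC1 (6.02, with 3 regions) ahead of JAG (4.48), ADPG1 (3.96), HEC2 (3.86), NGA3 (3.54), SAUR10 (3.09) and ALC (2.96). IND, SPT, HEC3, CRC, NGA1, NGA2, NGA4, NST1 and NST3 were not targets. The count was 5 of 17 within 1 kb (background 13.9%) and 5 among peaks with a fold above the median (12.9%). Of 12 genes of bud outgrowth and strigolactones, 6 were, namely the branching repressor BRC1 (5.00), MAX3 (4.53), NCED3 (3.93), MAX1 (3.37), D14 (3.34) and HB21 (3.19). BRC2, HB40, HB53, MAX2, MAX4 and DRM1 were not. The count was 3 of 12 within 1 kb (background 13.9%), 3 among peaks with a fold above the median (12.9%) and 3 at the lowest −log10 p of the pistil list (16.1%).

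In 2 lists the share of targets was near the background of 23.7%. Of 24 chromatin regulators, 7 were targets (29.2%): HAC5 (9.75) and its relatives HAC1 (5.92, inside) and HAC12 (3.05), the remodeller gene BRM (4.62, 25 bp away), ULT1 (3.48), the vernalization gene VIN3 (2.88) and EMF1 (2.80). The Polycomb genes CLF, SWN, MEA, FIE, EMF2, VRN2 and TFL2 had none, nor had SYD, HAC2, HAC4, HDA6, HDA19, PKL, VRN1, VRN5, ELF6 and REF6. Of 25 clock and light genes, 8 were targets (32.0%), namely PHYA (7.66), CDF2 (6.90), PIF4 (6.53), PIF5 (5.54), CDF3 (4.52), CRY2 (3.45), LUX (3.31) and CRY1 (3.02). PHYA, PIF4, PIF5, CRY1 and CRY2 had that summit inside the gene. Of the listed clock genes, LUX alone had a summit, and CCA1, LHY, TOC1, PRR3, PRR5, PRR7, PRR9, ELF3, ELF4, GI, RVE8, ZTL and FKF1 had none. CO, CDF1, PHYB and PIF3 had none either. Among peaks with a fold above the median (background 12.9%), the counts were 3 chromatin regulators and 5 clock and light genes, and at the lowest −log10 p of the pistil list (16.1%) 4 chromatin regulators were targets.

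The control lists were not empty. Of 10 reference genes, TUB2 (6.24) and ACT8 (3.26) were targets. Of 11 seed storage genes, CRB was (5.35, with FLA9 nearer). Of 12 root genes, 5 were, with SCR (6.25), CASP1 (4.44), SHR (4.30), PLT1 (3.66) and GL2 (2.84), which is 41.7% of that list. Within 1 kb the counts were 0 reference genes, 0 seed genes and 1 root gene, beside the background of 13.9%. Among peaks with a fold above the median they were 1, 1 and 3 (background 12.9%), and with the nearest gene alone 1, 0 and 4 (11.7%). SCR and SHR also act in shoots, and whether this bears on the count of the root list was not tested. None of the other members of these lists had a summit within 3 kb, namely ACT2, ACT7, UBQ10, PEX4, PP2AA3, TIP41, GAPC2, YLS8, CRA1, CRU3, SESA1 to SESA5, OLEO1, OLEO2, PAP85, WER, PLT2, EXPA7, COBL9, RHD6, PHO1 and NRT2.1.

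The IM list was then set against the pistil list in 3 features, with p-values adjusted over the 3. All rows of both lists were taken. Whether the authors' rule of selection from the longer lists used these features is not known. IM regions had several summits less often by two-sided Fisher's exact tests (27.2% of 3650 against 32.3% of 3494, odds ratio 0.78, adjusted p = 3.61e-06). They measured 2 kb or more in a higher share of cases (12.3% against 5.98%, odds ratio 2.21, adjusted exact p = 2.32e-20). Summits lay inside genes more often in IM (29.5% against 26.0%, odds ratio 1.19, adjusted exact p = 0.00105). With both lists limited to the lowest −log10 p of the pistil list, 34.4, which left 2346 IM regions, the odds ratios were 0.82, 2.61 and 1.16, with adjusted exact p-values of 0.00145, 2.72e-25 and 0.0128. The tests treat regions as independent and describe the lists, not plants. Their p-values hold no spread between replicates. Of the IM regions, 55.5% of those with 1 summit and 70.1% of those with several overlapped a pistil region. The tests ignored this pairing. Single-summit regions were also wider in IM (median 936 bp against 761.5 bp).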

How the data were processed

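ChIP-seq regions of FUL-GFP in inflorescence meristem were taken from the authors' deposited list. Tools listed in the submitters' processing notes, with no role given, are MACS2 2.1.0, deepTools, Bowtie 1.1.2 and Picard 2.60, and the build is TAIR10. Per the labels, tissue was fixed for 15 to 30 min and each tissue had 2 replicates and 1 input. Peak names hold the word pooled. The fold is a ratio at the summit, the −log10 p is the value at the summit, and the score is 10 times −log10 p cut to a whole number, all as deposited by the authors. Peak numbers reach 13754, so the 3650 rows are 26.5% of a longer list. The rule of selection is not given in the sources used here.

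Starts were raised by 1 to count from 1. Gene names and distances came from RefSeq genes of TAIR10.1 (27444 protein-coding genes on 5 chromosomes), whose coordinates are not printed. The table has no strand, exons or descriptions, and no sequence was used, so the planned split by gene start and the CArG box counts were not made. Functions were read from words in symbols and synonyms. Members of lists were matched by locus, and the names SPL16 and TIP41 are not in the table. Members, lists and tests were chosen with earlier results of these data known. The genes named were those nearest to the 25 highest folds, list members (the planned limit of 8 per list was passed to account for each member), and the 5 widest, most-summit, lowest and gene-distant regions. The gene-to-summit assignment was checked on simulated data. Shares have Wilson 95% intervals. Lists were compared by Fisher's exact test with Benjamini-Hochberg adjustment (SciPy 1.17.1, statsmodels 0.14.6, Python 3.11.15).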

Additional observations from a re-analysis of the deposited data

Results flagged for a closer look

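Each of the 3 comparisons between the lists stood out because the test of the difference itself passed, with regions as units and no spread between replicates. The odds ratio of IM over pistil was 0.78 for regions with several summits, 2.21 for regions of 2 kb or more and 1.19 for summits inside genes. The first and the second go opposite ways: the IM list had wider regions with fewer named summits. Tissue, mutant background and libraries differ together between the lists and cannot be told apart.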

How the results depend on the processing

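The number of target genes depended on the definition. It was 6505 in the main setting, 3803 within 1 kb, 3209 with the nearest gene alone and 3553 among peaks with a fold above the median. It was 4432 at the lowest −log10 p of the pistil list and 7371 with any base of the region within 3 kb, both within 1.5 times of the main count. The median fold was 4.68 above the median and 4.36 at that −log10 p, and the median width 1169 bp and 1147.5 bp, both by the construction of these subsets. Shares of several-summit regions, of summits inside genes and of summits near the middle of their region stayed within their intervals under both. The 3 comparisons with pistil kept their direction and passed at the common −log10 p and among regions without a partner. Among the latter the odds ratios were 0.66, 2.40 and 1.52. Regions were again the units of these tests, which hold no spread between replicates. Of the 17 lists, the count of targets changed by more than 1.5 times in 7 within 1 kb, in 2 with the nearest gene, in 3 at the −log10 p of the pistil list, in 11 above the median fold and in 0 with any base of the region. Each region has 1 row, so taking 1 summit per region changes nothing. No paired analysis was possible because the lists hold no value per replicate, and no replicate could be left out. The depth behind each fold is unknown.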

Other observations

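MicroRNA genes near summits were not part of the lists above and were looked at after their values were seen. Of 326 microRNA genes, 73 had a summit inside or within 3 kb (22.4%). The gene of miR319c, a regulator of TCP growth genes, lay 2282 bp from the summit of rank 4, whose nearest protein-coding gene is ATG18C (fold 9.32). Genes of miR156 and miR157, which hold SPL genes down, had a summit in 11 of 14 cases, the highest being MIR156f (6.67), MIR156e (6.05) and MIR156d (5.67). Genes of miR159 and miR319 had one in 5 of 6 cases, of miR165 and miR166 in 3 of 9, and of miR172 in 1 of 5 (3.13). Families were picked after seeing the values, and microRNA genes can share a summit with another gene.

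Pseudogenes lay near summits less often than other classes of gene: 112 of 3917 had one inside or within 3 kb (2.86%, 2.38 to 3.43%), against 842 of 3480 lncRNA genes (24.2%) and 102 of 625 tRNA genes (16.3%).

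Some regions lay in runs, with neighbouring summits within 5 kb of each other. The share that scattered placement would give was not computed, so no clustering is read from these values. Neighbouring summits were a median of 16318 bp apart, and 772 of 3645 neighbours (21.2%) were within 5 kb. The longest run, chosen after its value was seen, had 7 regions over 19139 bp on chromosome 3 from MYB108, with folds of 2.83 to 5.47, and the next had 6 over 11081 bp at GRF3, a growth-regulating factor gene on chromosome 2 (2.89 to 6.29). TOE3 was in a run of 5 regions over 11828 bp (3.44 to 7.94).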
